A study of Rattus norvegicus with 63 samples.

Results

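The livers of 3 rats treated with dimethylnitrosamine (DMN) were compared with those of 3 rats that received the vehicle, corn oil. These 6 animals were taken by their labels from a series of 63 rats, in which 45 animals had received 1 of 15 compounds and 18 had received a vehicle only, with 3 animals in every group. The series was made to ask which early molecular changes in the liver separate classes of carcinogens. Protein lysates of the livers were printed on reverse-phase protein arrays, on which an antibody against 1 protein or 1 modified residue reads the amount in every lysate as a relative fluorescence intensity (RFI). All 158 analytes of the array entered the comparison. Of these, 104 read a total protein, and the other 54 read a protein modified at a given residue, in most cases by phosphorylation.

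All animals were male Wistar Hanover rats that were 8 to 10 weeks old when they were assigned to dose groups. DMN was given in corn oil by gastric gavage at 4 mg/kg per day for 7 days. The reference was the corn oil control set that the labels tie to this treatment, set 3 (animals 4, 5 and 6), which received corn oil alone for 7 days. C.I. Direct Black (CIDB), which the study also classes as a genotoxic carcinogen, was given in corn oil at 146 mg/kg per day for 7 days and shares control set 3 with DMN. Another corn oil group, set 4 (animals 1, 2 and 3), was dosed for 14 days. The methods state that the 3 treated animals were picked from a larger dose group for visible histopathological change in the liver, so they are a selected set.

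DMN is a small nitrosamine that the liver oxidizes, mainly through the cytochrome P450 enzyme CYP2E1, to a product that methylates DNA and proteins. It damages hepatocytes around the central vein, and repeated dosing of rats is a known model of liver injury, fibrosis and tumours. BAX is a protein that permeabilizes the outer mitochondrial membrane in apoptosis, and other members of the BCL2 family restrain it.

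BAX was 1.77-fold higher in DMN livers than in control livers (95% interval 1.40 to 2.23), and no analyte passed the test in the other direction. Of the 158 analytes, 2 passed at an adjusted p below 0.05, both higher after DMN (1.27% of those tested), with limma across all 63 animals and Benjamini-Hochberg adjustment over all analytes. At an unadjusted p below 0.05, 9 analytes passed (5.70% of those tested), of which 4 were higher and 5 were lower. Over all 158 analytes the median log2 change was -0.03, the quartiles were -0.11 and 0.05, and the median standard error (SE) of a change was 0.22. Most analytes therefore differed between the groups by less than the error of a single comparison.

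**Figure D1:**
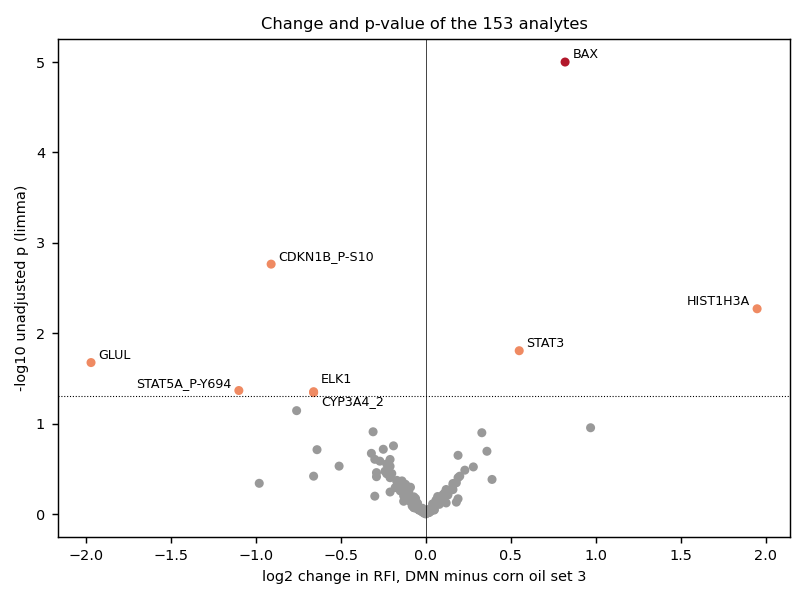
Each point is 1 of 153 analytes, with the log2 change in RFI of DMN minus corn oil set 3 on the horizontal axis and -log10 of the unadjusted limma p on the vertical axis. The red point (BAX) passed an adjusted p of 0.05, orange points passed an unadjusted p of 0.05 (dotted line) only, and most grey points lie near a change of 0.

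BAX had an RFI of 0.655, 0.974 and 1.07 in DMN animals 1, 2 and 3, against 0.432, 0.541 and 0.527 in control animals 4, 5 and 6. The groups did not overlap, and DMN animal 1 was the lowest of the treated animals. The means were 0.900 ± 0.218 (SD, n = 3) and 0.500 ± 0.0593 (SD, n = 3). The log2 change was 0.82 (SE 0.17) with a limma adjusted p of 8.0e-04. Of the 3 DMN animals, 2 exceeded the highest vehicle animal of the series, at 0.745. DMN had the second highest mean of the 21 groups, after CIDB at 1.52 and before thioacetamide at 0.871 and methapyrilene at 0.827.

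The call of BAX rests on the spread shared by all 21 groups. When the 6 animals were fitted alone, its log2 change stayed at 0.82, but the adjusted p became 0.375 and no analyte was called. A comparison of 3 with 3 animals cannot give an exact two-sided permutation p below 0.1, so no single analyte could pass such a test. The log2 change of BAX was 0.68 without DMN animal 3 and 1.04 without DMN animal 1, and BAX was called whichever of the 6 animals was left out. A lysate pools all cells of the tissue piece, so a change in protein per cell and a change in the mix of cells cannot be told apart.

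The overall signal of the animals differed somewhat. The median log2 ratio to the control mean over analytes was -0.23, 0.09 and 0.03 in DMN animals 1, 2 and 3 and -0.23, 0.05 and 0.17 in control animals 4, 5 and 6. DMN animal 1 was below all controls for 65 analytes and above all of them for 9, whereas DMN animal 2 was below for 12 and above for 46. Between pairs of DMN animals, the log2 ratios to the control mean correlated at r from -0.0841 to 0.763. The DMN animals therefore did not all share a profile. After each animal was centred on its median, BAX stood at 0.49, 0.74 and 1.11 log2 units in the DMN animals and at -0.11, 0.01 and -0.06 in the controls, a log2 change of 0.83.

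Complete separation of the groups occurred in both directions. All DMN animals were above all controls for 5 analytes (3.16% of those tested), among them BAX, HIST1H3A, GLB1 and JUN, and below all controls for 4 (2.53%), namely CDKN1B_P-S10, GLUL, ELK1 and CYP2C8. The beta-galactosidase GLB1, a lysosomal enzyme, had 0.267, 0.311 and 0.271 against 0.216, 0.231 and 0.228, a log2 change of 0.33 (95% interval -0.10 to 0.75). The values of JUN, a subunit of the transcription factor AP-1, were 0.254, 0.262 and 0.278 against 0.239, 0.220 and 0.230, a log2 change of 0.20 (95% interval -0.26 to 0.67). For both, the 95% interval included 0, and neither passed the unadjusted threshold. After each animal was centred on its median, the groups overlapped for JUN, with DMN animal 2 at -1.16 and control animal 4 at -0.97. Centring also separated STAT5A_P-Y694, CYP2E1_1 and total CDKN1B, with all DMN animals below all controls. A random split of 3 and 3 animals separates an analyte completely, in either direction, with a probability of 0.1. Before centring, the shares of separated analytes are below that, so separation alone does not mark a change.

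**Figure D2:**
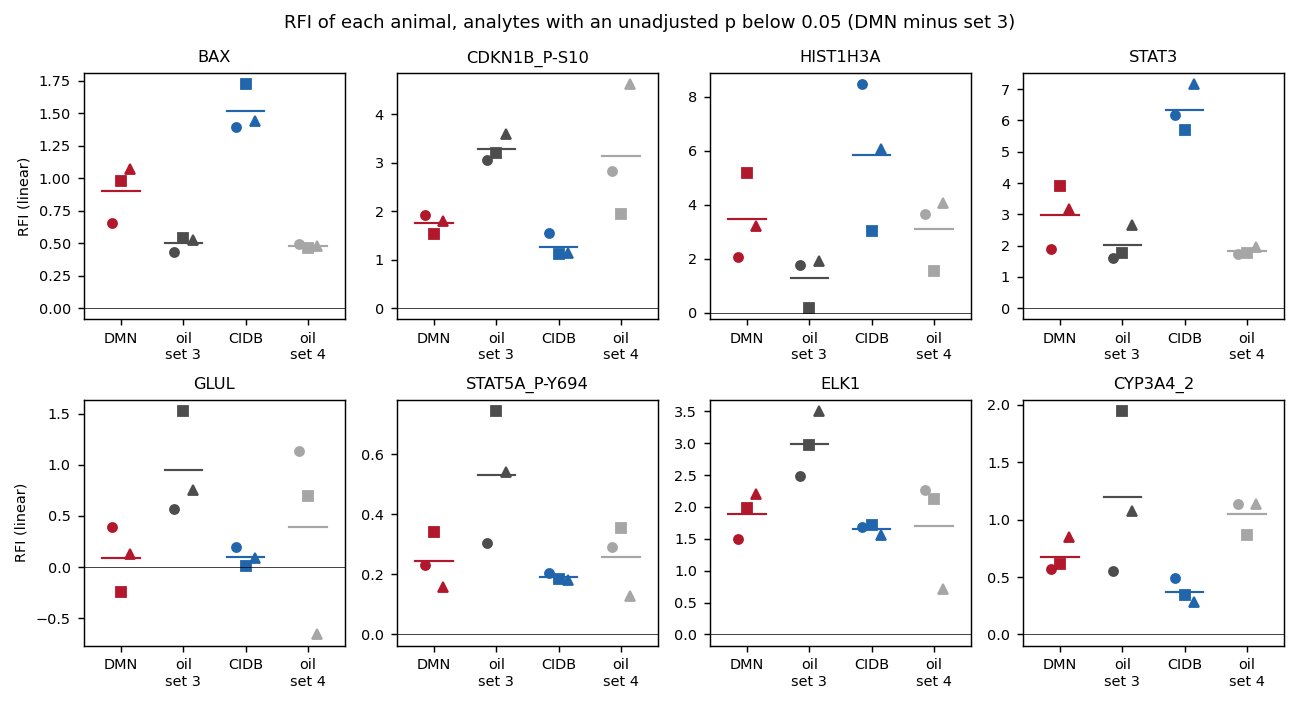
Each panel shows 1 of 8 analytes with an unadjusted p below 0.05, with the linear RFI of each animal on the vertical axis and the group on the horizontal axis (DMN, corn oil set 3, CIDB, corn oil set 4). Circles, squares and triangles are the animals of a group in the order of their numbers and horizontal lines are means. DMN separates upwards from set 3 for BAX and HIST1H3A and downwards for CDKN1B_P-S10, GLUL and ELK1, and for HIST1H3A the square of set 3, animal 5, lies near 0.

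A further 7 analytes had an unadjusted p below 0.05 and did not pass the adjustment. CDKN1B_P-S10 is the cell cycle inhibitor p27 phosphorylated at serine 10, a site linked to its export from the nucleus. It had 1.92, 1.52 and 1.80 in the DMN animals and 3.05, 3.20 and 3.58 in the controls. The DMN animals were below these controls and also below the lowest of the 18 vehicle animals of the series, at 1.95. The log2 change was -0.91 (SE 0.27) with a limma adjusted p of 0.0905. In the log2 values that the authors deposited in addition the change was -0.27, and there the row of this name followed the RFI of CDKN1B_P-S10 with a Spearman rho of 0.369 over deviations from the group means of the 45 treated animals, a description of rows that share the same lysates. The row named CDKN1B followed it more closely, with a rho of 0.833, and had a change of -0.92, so which of these rows reads CDKN1B_P-S10 was not settled. The change after DMN and the mean change after the other 14 compounds differed by -0.06 log2 units (SE 0.29).

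Total histone H3 (HIST1H3A) had 2.06, 5.18 and 3.22 in the DMN animals and 1.77, 0.175 and 1.93 in the controls. Control animal 5 stood far below all others, and corn oil set 3 had the lowest mean of the 21 groups, 1.29, while the mean of the DMN group was ninth, at 3.49. The log2 change was 1.95 (SE 0.67) with a limma adjusted p of 0.212, and it was 0.82 without control animal 5 and 1.07 against all 6 corn oil animals. Between the control sets, set 3 minus set 4, histone H3 differed by -1.76 log2 units.

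GLUL is glutamine synthetase, an enzyme of the hepatocytes that ring the central vein. Its RFI was 0.389, -0.249 and 0.127 in the DMN animals and 0.573, 1.53 and 0.758 in the controls. All DMN values were below all values of set 3, but they were close to 0 and 1 of them was below it, so no fold is given. The limma fit, which lacks that animal, had an adjusted p of 0.555. The 18 vehicle animals of the series ran from -1.34 to 1.74, and no DMN animal was below all of them. A lower GLUL was not particular to DMN, as it was called against the own set after CIDB, diethylstilbestrol and Wy-14643 (limma adjusted p = 1.7e-04, 0.0217 and 0.00149). The Wy-14643 fit lacks an animal at -2.28. After thioacetamide the animals had -1.86, -0.747 and 0.0615, of which the fit kept the last only. ELK1, a transcription factor phosphorylated by MAP kinases, had 1.50, 1.98 and 2.21 against 2.48, 2.97 and 3.51. The groups did not overlap, and the log2 change was -0.66 (95% interval -1.30 to -0.02, adjusted p = 0.798 with limma), while set 3 itself was 0.97 log2 units above set 4 and the change against all 6 corn oil animals was -0.17.

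Of the cytokine, STAT and NF-kB signalling list, 14 analytes are described, none of which was called, beside 1.27% of all analytes. They had a median log2 change of -0.07, beside -0.03 over all analytes, and 5 of them had a positive change, beside 38.6% of all analytes. The kinases that phosphorylate STAT proteins after a cytokine binds gave no call, with a log2 change of -0.10 for JAK1, 0.18 for JAK1_P-Y1022/Y1023, 0.09 for JAK2 and 0.11 for JAK2_P-Y1007/Y1008. STAT3, the STAT of interleukin 6 signalling, had 1.90, 3.92 and 3.16 in the DMN animals and 1.60, 1.77 and 2.67 in the controls. DMN animal 1 lay within the control range, and the log2 change was 0.55 (SE 0.22, adjusted p = 0.492 with limma). STAT3 was called without DMN animal 1, and in the authors' log2 values, where its change was 0.63 (adjusted p = 0.0390).

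STAT3_P-Y705, the tyrosine-phosphorylated and active form of STAT3, had 0.275, 0.378 and 0.348 in the DMN animals and 0.298, 0.350 and 0.387 in the controls, a log2 change of -0.05 (95% interval -0.39 to 0.29). STAT3_P-S727 had a log2 change of -0.13 and did not pass either. STAT5A_P-Y694, the activated form of a STAT that growth hormone signals through, had 0.231, 0.341 and 0.159 against 0.303, 0.745 and 0.542, with overlap. Its log2 change was -1.10 (95% interval -2.16 to -0.04, adjusted p = 0.798 with limma), beside -0.31 for total STAT5A, and set 3 was 1.07 log2 units above set 4; against all 6 corn oil animals the change was -0.56. SOCS3, an inhibitor of JAK signalling, had a log2 change of 0.36 (95% interval -0.20 to 0.93), and the inhibitor of NF-kB, NFKBIA, one of 0.00.

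Of the apoptosis and BCL2 family list, 5 analytes were measured and BAX alone was called, beside 1.27% of all analytes tested. The median log2 change of the list was 0.16. BCL2L1, which opposes BAX at the mitochondrion, had 0.884, 1.26 and 1.28 against 0.751, 1.26 and 0.937, a log2 change of 0.23 (95% interval -0.24 to 0.70). MCL1, another protein that restrains apoptosis, had a log2 change of 0.16 (95% interval -0.30 to 0.63). AVEN and BIK had log2 changes of 0.10 and -0.02.

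**Figure D3:**
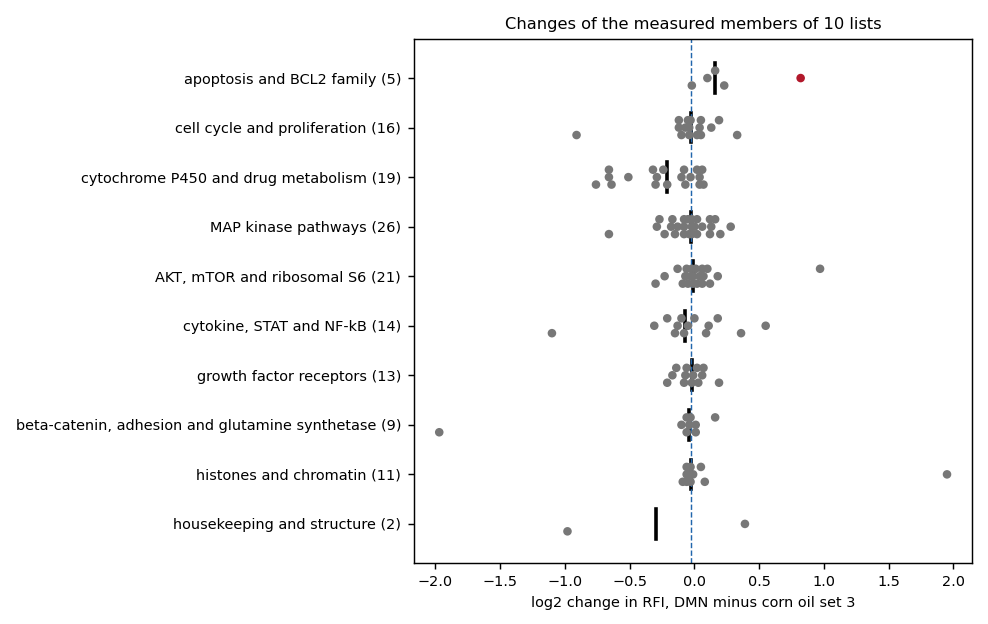
Each point is the log2 change in RFI of DMN minus corn oil set 3 (horizontal axis) of 1 measured member of 10 lists of analytes (vertical axis, with the number shown). The red point (BAX) passed an adjusted p of 0.05, black bars are list medians and the dashed line is the median of all 158 analytes, -0.03. The cytochrome P450 list has its median at -0.21, and the other lists with more than 5 members have theirs between -0.07 and -0.01.

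The cytochrome P450 and drug metabolism list had 19 measured analytes. None was called, beside 1.27% of all analytes, and 5 had a positive change, beside 38.6% of all analytes. Its median log2 change was -0.21, the lowest of the 10 lists apart from that of the 2 housekeeping proteins, and -0.11 with all 6 corn oil animals as the reference. The antibodies are named by human gene symbols, and which rat enzyme each binds was not determined here. CYP2C8 had 1.38, 1.36 and 1.57 in the DMN animals and 1.64, 2.98 and 2.93 in the controls. The groups did not overlap, with a log2 change of -0.76 (95% interval -1.59 to 0.07), but set 3 was also 1.24 log2 units above set 4, and the change against all 6 corn oil animals was -0.14. CYP3A4_2 had 0.571, 0.610 and 0.852 against 0.553, 1.95 and 1.08, and the control animal 4 lay below all DMN animals. Its log2 change was -0.66 (SE 0.32, adjusted p = 0.798 with limma). It was -0.21 without control animal 5 and -1.12 without control animal 4, and neither was called. The other CYP3A4 antibody, CYP3A4_1, had a log2 change of -0.08 (95% interval -0.58 to 0.42).

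CYP2E1, the enzyme that activates DMN, was read by 2 antibodies, neither of which passed the test. CYP2E1_2 had 5.06, 2.29 and 2.84 in the DMN animals and 3.40, 5.72 and 4.93 in the controls, and DMN animal 1 lay within the control range. CYP2E1_1 had 0.326, 0.385 and 0.293 against 0.359, 0.664 and 0.614. Both log2 changes were negative, -0.51 (95% interval -1.49 to 0.46) and -0.66 (95% interval -2.17 to 0.85), with intervals that include 0. The reductase POR, which passes electrons to all microsomal P450 enzymes, had a log2 change of -0.24 (95% interval -0.75 to 0.26). CYP2B6_2 had the highest change of the list, 0.07.

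The labelled tissue could be checked only in part against marker proteins. Of the hepatocyte markers, 10 analytes were measured and all but GLUL were above 0 in each of the 6 animals. Their median log2 change was -0.41 (-0.18 against all 6 corn oil animals), and none was called, beside 1.27% of all analytes. Of the 10, 2 were positive (the higher, CYP1A2_2, at 0.04), beside 38.6% of all analytes. Their summed RFI was 13.2 to 16.5 in the DMN animals and 15.4 to 24.6 in the controls, with CYP3A4_1 and CYP2E1_2 as its largest terms. Apart from GLUL, HNF4A and IGFBP1, these analytes also belong to the cytochrome P450 list, so the values of both lists overlap. The hepatocyte transcription factor HNF4A had 1.57, 2.10 and 1.95 against 1.71, 2.23 and 1.86, a log2 change of -0.05 (95% interval -0.39 to 0.30). No marker of bile duct cells, of stellate cells and fibroblasts, of endothelium or of leukocytes was among the analytes. The part of such cells in the change of BAX was therefore not tested.

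Proteins of dividing cells were read by several antibodies. The 16 measured members of the cell cycle and proliferation list had a median log2 change of -0.03, and none was called, which is near the 1.27% called among all analytes. The proliferation antigen MKI67 had 0.258, 0.441 and 0.430 against 0.287, 0.286 and 0.455, with overlapping groups and a log2 change of 0.13 (95% interval -0.39 to 0.64). The log2 change was 0.02 for cyclin A2, which accompanies DNA replication, -0.07 for cyclin D1 and -0.12 for the Aurora kinase AURKB. The analyte AURKA_P-T288/T232/T198 had the highest change of the dividing cell markers, 0.19. It reads phosphorylated Aurora kinase sites and was dim, at 0.0685, 0.0898 and 0.0905 in the DMN animals against 0.0698, 0.0606 and 0.0887. Summed over the 6 marker analytes of dividing cells, the RFI was 3.81 to 5.38 in the DMN animals and 3.83 to 5.34 in the controls.

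The kinase cascades made up the largest lists. Of 26 analytes of the MAP kinase pathways and 21 of the AKT, mTOR and ribosomal S6 list, none passed the test, beside 1.27% of all analytes, and the median log2 changes were -0.03 and -0.01. In the first list the changes ran from -0.66 for ELK1 to 0.28 for MAPK3 (ERK1), and the phosphorylated, active form of ERK1 had a value of -0.27 (95% interval -0.76 to 0.21). The second list held the phosphorylated ribosomal protein RPS6_P-S235/S236, a readout of mTOR and S6 kinase activity, with 3.30, 3.92 and 4.49 against 1.57, 1.18 and 4.21. Control animal 6 was at the level of the DMN animals, and the log2 change was 0.97 (95% interval -0.23 to 2.16). Total ribosomal protein S6 varied widely within groups, with RPS6_1 at 2.78 to 18.6 in DMN and 5.00 to 36.7 in controls.

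None of 13 analytes of the growth factor receptor list was called, beside 1.27% of all analytes. Their log2 changes lay between -0.21 for the insulin-like growth factor receptor IGF1R and 0.19 for PTK2_P-Y576/Y577, the phosphorylated focal adhesion kinase. The beta-catenin and adhesion list had 9 members, none called, and apart from GLUL they lay between -0.10 for CTNNB1_P-S675 and 0.16 for APC. In the histone and chromatin list, 11 analytes were measured and none was called, which for each of these lists is near that 1.27%. The changes apart from total histone H3 lay between -0.09 for HIST1H2BB and 0.08 for HIST1H3A_TM-K27. Of the 2 housekeeping proteins, GAPDH had a log2 change of 0.39 (95% interval -0.56 to 1.34). Actin (ACTB) had 0.0222, 1.97 and -0.0429 in the DMN animals and 1.12, 0.956 and 0.0657 in the controls, with values near 0 in both groups.

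For 48 modified forms the total protein had been measured as well, and their ratio was tested to ask whether a modified form changed beyond its total. At an adjusted p below 0.05, 5 ratios were lower in DMN and none was higher (10.4% of those tested), and at an unadjusted p below 0.05, 8 were lower (16.7%). Of the 5, 4 share the total histone H3 as denominator, with log2 changes of -2.00 for HIST1H3A_A-K18, -1.87 for HIST1H3A_TM-K27, -1.98 for HIST1H3A_DM-K4 and -2.01 for HIST1H3A_P-S28 (each limma adjusted p = 0.0379). The 4 modified histones themselves had log2 changes of -0.06 to 0.08. The log2 ratio of HIST1H3A_A-K18 was -2.84, -4.10 and -3.37 in the DMN animals and -2.67, 0.88 and -2.50 in the controls, so that control animal 5, the animal with the low total histone H3, stood apart.

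The other called ratio was STAT3_P-Y705 over STAT3, at -2.79, -3.38 and -3.18 log2 units in the DMN animals and -2.42, -2.34 and -2.78 in the controls. All DMN animals were lower, DMN animal 1 only just, and the change was -0.60 (SE 0.18, limma adjusted p = 0.0379). The numerator had a log2 change of -0.05 and the denominator one of 0.55, neither of them called. Neither this ratio nor those of histone H3 were called without control animal 5, without DMN animal 2, without DMN animal 3, in the 6 animals alone or against all 6 corn oil animals, where the count was 0 each time. Besides, STAT3_P-Y705 over STAT3 was not called without control animal 4 (-0.55, adjusted p = 0.0717 with limma), nor HIST1H3A_DM-K4 over histone H3 in the authors' log2 values (-2.02, adjusted p = 0.0969 with limma). The ratios that passed the unadjusted threshold only were HIST1H3A_P-S10 at -1.99 and CDKN1B_P-S10 at -0.80 (each adjusted p = 0.0621 with limma) and STAT3_P-S727 at -0.68 (adjusted p = 0.109 with limma). The highest ratio change, 1.03 for RPS6_P-S235/S236, had an adjusted p of 0.515 with limma.

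CIDB was tested against the same control animals, and the changes of the compounds are therefore not independent. Against set 3, 12 analytes were called in CIDB (7.59% of those tested), 7 higher and 5 lower. The DMN and CIDB animals were compared directly, which does not involve the controls, and 5 analytes differed (3.16%), 1 higher and 4 lower in DMN.

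BAX was called against the controls after both compounds, by 0.82 in DMN and by 1.60 in CIDB on the log2 scale. The CIDB animals had 1.39, 1.72 and 1.44, all above every DMN animal, and the difference, DMN minus CIDB, was -0.78 (SE 0.17, limma adjusted p = 7.9e-04). This call was lost without DMN animal 1 (-0.56, adjusted p = 0.0599) and with both groups fitted alone (adjusted p = 0.141 with limma). For the other BCL2 family members the difference did not pass the test, at -0.69 for BCL2L1 (adjusted p = 0.108) and -0.74 for MCL1 (adjusted p = 0.0585 with limma). Against set 3, both had been called in CIDB, with log2 changes of 0.92 and 0.91.

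Further differences concerned STAT3 and JUN. STAT3 was 6.18, 5.68 and 7.15 in the CIDB animals and lower in DMN by 1.14 log2 units, a difference of -1.14 (SE 0.22, limma adjusted p = 1.7e-04). STAT3_P-Y705 was 0.530, 0.674 and 0.844 in CIDB, a difference of -1.02 (limma adjusted p = 1.7e-05), and JUN was 0.745, 0.631 and 0.636, a difference of -1.34 (SE 0.23, limma adjusted p = 3.2e-05). No CIDB animal overlapped with a DMN animal for these analytes, nor for BAX. All were picked by the same values, and the share of all analytes so separated was not counted. The separation therefore adds no support. With the DMN and CIDB groups fitted alone, the difference in JUN was called (limma adjusted p = 0.00231), whereas those in STAT3 (adjusted p = 0.0799) and STAT3_P-Y705 (adjusted p = 0.0529) were not. CDKN1B_P-S10 had a log2 change against set 3 of -0.91 in DMN, not called, and of -1.39 in CIDB, called, and the difference between the compounds was 0.48 (SE 0.27, adjusted p = 0.383 with limma).

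**Figure D4:**
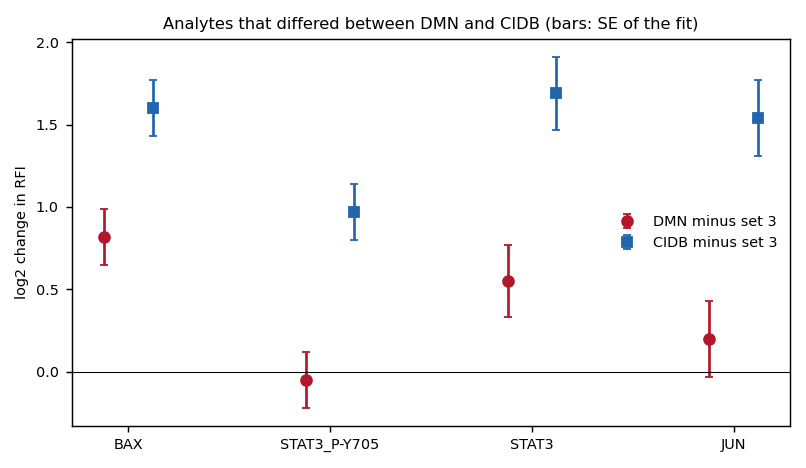
BAX, STAT3_P-Y705, STAT3 and JUN, which differed between DMN and CIDB, are on the horizontal axis, and the log2 change in RFI against the shared corn oil set 3 is on the vertical axis, with DMN as red circles, CIDB as blue squares and bars of 1 SE of the fit. All 4 are higher in CIDB, and BAX is the one with a called change after DMN.

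The change in each analyte after DMN was also compared with the mean change after the other 14 compounds, each against its own control set. By the labels, the sets of piperonylbutoxide, diethylstilbestrol, Wy-14643, thioacetamide and methapyrilene were dosed for 14 days, longer than these compounds. Most of the 14 compounds were compared with methylcellulose sets. The part of days and vehicle in these changes was not tested. At an adjusted p below 0.05, 2 analytes differed (1.27% of those tested). For BAX the excess was 0.61 (SE 0.17), with an adjusted p of 0.0527 from limma. CYP3A4_2 was lower by 1.46, a difference of -1.46 (adjusted p = 0.00575 with limma), and here the mean of the other compounds held the large rises after cyproterone acetate, piperonylbutoxide and phenobarbital, at 5.36, 5.23 and 2.26 log2 units. Without control animal 5, whose CYP3A4_2 was the highest of set 3, this difference was -1.05 and was not called. A lower CYP3A4_2 was not particular to DMN. Its log2 change was -1.53 after CIDB and -1.22 after thioacetamide, both called, and DMN minus CIDB was 0.88 (adjusted p = 0.152 with limma). The other CYP3A4 antibody, CYP3A4_1, did not share this pattern. It had a log2 change of 0.11 after CIDB, and its change after DMN differed from the mean of the other compounds by 0.04 (SE 0.26).

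**Figure D5:**
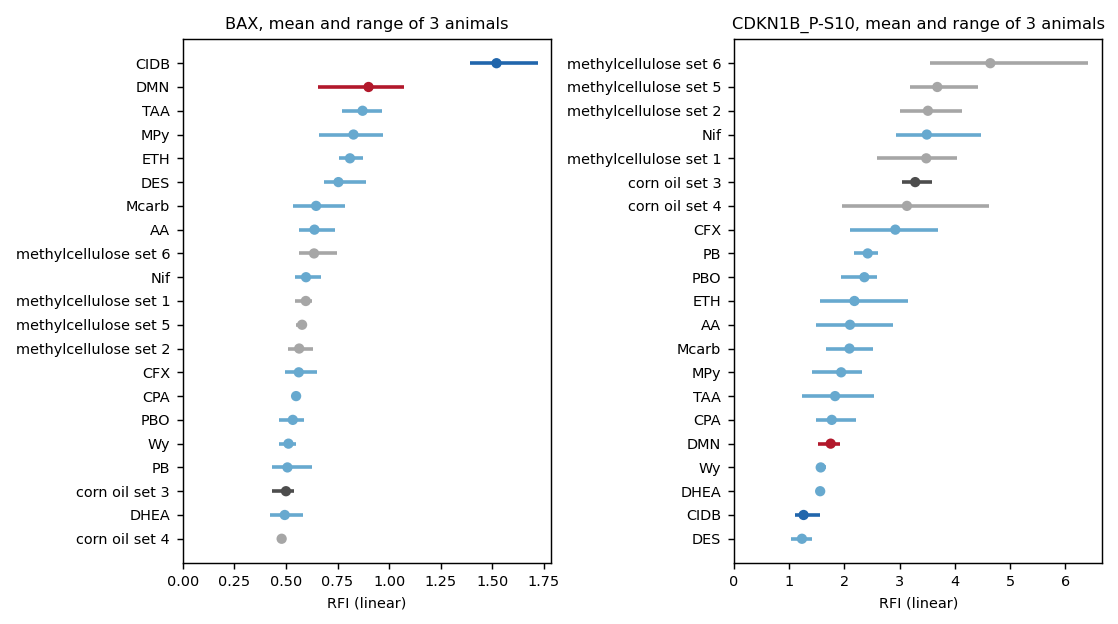
Mean RFI (points) and range of 3 animals (lines) of BAX (left) and CDKN1B_P-S10 (right) in the 21 groups of the series, ordered by mean, on a linear horizontal axis that starts at 0. DMN is red, CIDB blue, corn oil set 3 dark grey, other control sets light grey and other compounds light blue (ETH ethionine, Mcarb methylcarbamate, AA acetamide, Nif nifedipine, PBO piperonylbutoxide, DES diethylstilbestrol, MPy methapyrilene, CFX cefuroxime, Wy Wy-14643, CPA cyproterone acetate, PB phenobarbital, TAA thioacetamide, DHEA dehydroepiandrosterone). DMN has the second highest BAX mean, 0.900, after CIDB, and a low CDKN1B_P-S10 mean, 1.75, that several other compounds share.

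The vehicle groups give a background for these values. Corn oil set 3 minus corn oil set 4 gave no call at an adjusted p below 0.05, but 18 analytes had an unadjusted p below 0.05 (11.4% of those tested), more than the 9 of DMN against set 3. The days of dosing and the set cannot be told apart here. Set 3 and set 4 differed by 0.06 log2 units in BAX. Against all 6 corn oil animals the log2 change of BAX after DMN was 0.85, and it was called.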

How the data were processed

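Liver lysates had been measured on the ZeptoMARK reverse-phase protein array platform. The authors deposited a relative fluorescence intensity (RFI) on a linear scale for 158 analytes in each animal. The methods give subtraction of the local background from each spot, normalization across an array and a weighted mean of a sample's spots. The authors also deposited log2 values of the same animals, described as ratios to the controls with missing values imputed. Their row of the same name followed the RFI with a median Spearman rho of 0.555 over the 45 treated animals (deviations from group means). That row had the highest rho for 75 of the 158 analytes. For STAT3_P-Y705 its rho was 0.239, beside 0.567 for the row RPS6_1. For HIST1H3A_A-K18 its rho was 0.351, beside 0.686 for the row CYP4F2. The match of such rows was not settled, and the authors' log2 values served as an alternative only. 0 columns lacked a sample.

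RFI at or below 0 (2 values in the 6 animals) was set to missing and the rest was log2 transformed, without scaling between animals. Means of 21 groups over all 63 animals were fitted with limma 3.58.1 (R 4.3.3, lmFit and eBayes) and p-values, two-sided, were adjusted by Benjamini-Hochberg over 158 analytes, or over 48 pairs for modified forms. Ratios used the mean log2 of all antibodies of the total protein. The fit was tested on simulated data. Labels name separate animals as replicates, and their number limits the precision.

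Analytes were named if they had an unadjusted p below 0.05 against set 3, were among the 5 highest or 5 lowest changes, were the extremes of a list, or were called in another comparison; further members were added as context after their values were seen. Some analytes were fitted with the rest, and enter the counts, but are not reported here. The comparison and the lists were chosen with earlier results of these data known. Alternatives were centring, imputation of missing values from 5 neighbours, log2(RFI + 0.1), leaving out analytes with a median RFI below 0.2, a variance trend, the compared groups alone, the authors' log2 values, all 6 corn oil animals, a replicate block and leaving out each animal.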

Additional observations from a re-analysis of the deposited data

Results flagged for a closer look

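The change after DMN differed from that after CIDB, with the same vehicle, days and controls, by a direct test of the difference between the treated groups. DMN minus CIDB was -1.34 log2 units for JUN, -1.14 for STAT3, -1.02 for STAT3_P-Y705 and -0.78 for BAX. For each of them the DMN and CIDB animals did not overlap. These analytes were picked by the same values and the share of all analytes so separated was not counted, so separation adds no support. With both groups fitted alone the difference passed for JUN, but not for STAT3, STAT3_P-Y705 or BAX, and that of BAX did not pass without DMN animal 1 either.

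The change after DMN differed from the mean change after the other 14 compounds by -1.46 log2 units for CYP3A4_2. The mean holds large rises after 3 compounds, and the change after DMN against its own controls, -0.66, was not called, while it was -1.53 after CIDB. For the other CYP3A4 antibody, CYP3A4_1, the difference from the mean was 0.04 (SE 0.26). Some of the other compounds were compared with control sets that were dosed for longer.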

How the results depend on the processing

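BAX and the other analytes named here with an unadjusted p below 0.05 against set 3 kept their direction under every alternative. BAX was called in 13 of 14 alternatives. The sign turned for 21 values of analytes that were not called. Against all 6 corn oil animals the log2 change was 0.17 for BIK, -0.01 for MAPK3, 0.20 for RPS6_1, 0.02 for IGF1R, 0.02 for AURKB and -0.14 for APC. In the authors' log2 values it was 0.81 for ACTB, 0.05 for BIK, 0.01 for HIST1H2BB and 0.65 for the ratio of CDKN1B_P-S10 to CDKN1B, whose rows there followed the RFI of the same name with a Spearman rho of 0.369 and 0.0104, so that the match of these rows was not settled. Without single animals it ran from -4.22 to 2.26 for ACTB, from -0.19 to 0.12 for BIK, from -0.94 to 0.60 for RPS6_1, from -0.45 to 0.02 for IGF1R, from -0.27 to 0.15 for HIST1H2BB and from -0.08 to 0.18 for CYP1A2_2. The count of 2 analytes called in DMN against set 3 stayed at 2 or 3 except when the 6 animals were fitted alone, which gave 0 (9 at an unadjusted p below 0.05 in both fits); leaving out single animals gave 2 to 3. DMN against CIDB, 5 calls, gave 10 with centred animals, 3 in the 6 animals alone, 9 in the authors' log2 values and 9 with a replicate block, and 4 to 6 without single animals; BAX was not called without DMN animal 1. DMN against the mean of the other compounds, 2 calls, gave 4 with centred animals, 4 with dim analytes left out, 4 without CIDB and 1 to 5 without single animals; it was 5 without corn oil animal 6 and 1 without corn oil animal 5. Ratios of modified to total forms, 5 calls, gave 0 in the 6 animals alone, 0 against all 6 corn oil animals and 0 to 7 without single animals. CIDB against set 3 gave 9 to 13 calls and set 3 against set 4 gave 0 to 1 without single animals, the 1 being without set 4 animal 2. The cause of these shifts was not tested. Whether the replicate numbers pair DMN and CIDB animals was not settled. Deviations of same-numbered animals correlated at 0.416, 0.0723 and 0.384. Animals 1 and 3 of DMN correlated best with the CIDB animal of the same number, and animal 2 of DMN with animal 3 of CIDB (0.281). Deviations from a mean of 3 animals are not independent, so these values cannot decide it. The block with 9 calls is given as a count only. No paired analysis was possible for DMN against set 3 because their replicate numbers differ.

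The 3 animals per group limit what could be detected, and analytes near 0 RFI, such as GLUL and ACTB, have values close to the background. The row of BAX in the authors' log2 values followed the RFI of BAX with a Spearman rho of 0.380 over the 45 treated animals, as deviations from group means, and that of another row, RPS6_1, was higher, at 0.621. Whether it reads BAX was not settled, and these values are 1 of the 13 alternatives in which BAX was called. For the RFI of JUN, the row of the same name had a rho of 0.623 and the row HIST1H3A_TM-K27 one of 0.737. In the authors' log2 values the change of JUN after DMN against set 3 was 0.95, beside 0.20 in the RFI, so this match was not settled either. These values are 1 of the 14 alternatives in which JUN was called in DMN against CIDB.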
